A study of Mus musculus with 58 samples.

Results

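The FGF and ERK feedback genes are 9 of the 20177 genes in the files: the ligand Fgf4, the receptor Fgfr1, the ETS transcription factors Etv4 and Etv5, the phosphatases Dusp4 and Dusp6, and the inhibitors Spry2, Spry4 and Spred1. They were chosen by name, as members of 1 pathway. Each symbol was matched to its Ensembl identifier, and the reads of all its 3′ UTR intervals were summed. In mouse ES (mES) cells, FGF4 made by the cells binds FGF receptors, and the signal runs through RAS, MEK and ERK. Active ERK switches on genes whose products act back on the pathway: Sprouty and SPRED proteins restrain signalling from RAS, dual-specificity phosphatases remove the activating phosphates of MAP kinases, and ETV4 and ETV5 carry the signal to other genes. ERK activity is known to move mES cells out of self-renewal, and the transcripts of the feedback genes are widely used as a readout of it.

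The study removed core subunits of the SET1/COMPASS complexes, which methylate H3K4, from E14 mES cells (129/Ola) grown in serum with LIF, and asked what follows for transcription. In the DPY30–mAID line both alleles of Dpy30 carried the mAID degron tag, OsTIR1 was expressed, and auxin was given for 0, 2, 8 or 24 h (3 libraries each). In the RBBP5–FKBP line Rbbp5 carried the FKBP tag and dTAG-13 was given for 0, 2, 8 or 24 h (3 libraries each). In the DPY30–mAID Kdm5a/b dKO line the genes of the demethylases KDM5A and KDM5B were also deleted, at 0 h too, and auxin was given for 0, 2, 4, 8, 24 or 48 h (2 libraries each). The RBBP5–FKBP line was a clone from a sorted single cell, DPY30–mAID cells came from homozygous clones later selected for OsTIR1, and 2 dKO clones were isolated, with no label for which library came from which. These 36 SLAM-seq libraries were labelled with 4-thiouridine, which is read as a T>C change. Reads with T>C were taken to come from RNA made during labelling, apart from a background also seen without labelling. A further 22 Quant-seq libraries, without labelling, followed DPY30–mAID cells given retinoic acid (RA) without LIF for 8 h or 1, 2, 4 or 6 days with auxin or with its solvent DMSO, beside DMSO cells at 0 h (2 libraries each). The 2 DMSO libraries of day 6 held identical values and were counted as 1. The study calls the SLAM-seq replicates biological. For Quant-seq the sources used here do not say whether they were separate cultures, so its p-values measure the spread between these libraries, which may be technical.

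Total counts ran from 2013350 to 2806821 in DPY30–mAID, 1721185 to 2852331 in RBBP5–FKBP and 5931269 to 7792404 in dKO SLAM-seq libraries, and from 1264241 to 2543632 in Quant-seq. Reads with T>C made up 5.51% to 16.1%, 4.85% to 10.1% and 2.04% to 5.27% of reads in the 3 lines, and 0.303% to 0.388% in the unlabelled Quant-seq libraries, which is the background. Reads in dKO libraries covered 11.2 T positions on average, against 18.7 in the other lines, so T>C shares were ranked among the genes of each line and not tested between lines. Quant-seq reads covered 11.6, and the background was not adjusted for this. All 8 pluripotency markers, Oct4 (Pou5f1) and Nanog among them, were detected in every SLAM-seq library, at 5818 to 9898 CPM (reads of a gene per 1000000 reads of the library, TMM-scaled) in sum. The 6 primitive endoderm markers reached 34.0 to 103 in sum, and 1 of the 6 was detected in every SLAM-seq library. Kdm5a ran at 26.2 to 38.5 CPM in dKO and 62.7 to 108 in DPY30–mAID libraries, and Kdm5b at 112 to 153 against 404 to 983. Counted reads lie in 3′ UTRs, and whether the deletions reach these was not examined here, so these values do not check the knockout. The degron tags act on protein and were not checked.

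Promoter sequences were at hand for 5 members, and are shown because H3K4me3, the mark lost with COMPASS, lies at promoters. Each line below gives the 250 bases before the transcription start from RefSeq (GRCm38.p6), 5′ to 3′ on the gene's strand, with every GC box (GGGCGG, or its reverse complement) in capitals.
Fgf4, chr7:144861136-144861385, plus strand: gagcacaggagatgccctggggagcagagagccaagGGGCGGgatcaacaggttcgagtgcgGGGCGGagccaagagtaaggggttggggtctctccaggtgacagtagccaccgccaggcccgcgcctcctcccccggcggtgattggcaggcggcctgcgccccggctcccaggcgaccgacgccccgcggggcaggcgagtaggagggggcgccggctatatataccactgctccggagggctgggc
Etv5, chr16:22439571-22439820, minus strand: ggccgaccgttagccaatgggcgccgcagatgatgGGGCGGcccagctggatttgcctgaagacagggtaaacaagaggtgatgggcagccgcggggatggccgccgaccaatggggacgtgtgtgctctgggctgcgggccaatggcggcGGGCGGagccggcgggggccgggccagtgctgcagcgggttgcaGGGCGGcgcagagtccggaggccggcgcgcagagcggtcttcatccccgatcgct
Dusp6, chr10:99262981-99263230, plus strand: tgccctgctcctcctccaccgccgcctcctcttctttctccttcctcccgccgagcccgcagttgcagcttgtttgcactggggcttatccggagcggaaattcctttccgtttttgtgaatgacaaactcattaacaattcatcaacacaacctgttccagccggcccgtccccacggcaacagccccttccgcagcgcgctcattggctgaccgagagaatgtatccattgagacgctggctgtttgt
Spry2, chr14:105896820-105897069, minus strand: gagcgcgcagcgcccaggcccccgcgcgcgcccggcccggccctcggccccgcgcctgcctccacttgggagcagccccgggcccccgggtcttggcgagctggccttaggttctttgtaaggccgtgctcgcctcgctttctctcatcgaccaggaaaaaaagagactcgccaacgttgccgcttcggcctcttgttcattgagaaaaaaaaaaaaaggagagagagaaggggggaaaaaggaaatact
Spred1, chr2:117120821-117121070, plus strand: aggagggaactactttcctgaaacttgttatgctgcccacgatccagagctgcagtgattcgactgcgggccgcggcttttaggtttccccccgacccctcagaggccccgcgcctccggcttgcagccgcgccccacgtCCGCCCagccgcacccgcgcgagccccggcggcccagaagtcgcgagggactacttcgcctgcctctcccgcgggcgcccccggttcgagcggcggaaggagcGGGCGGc

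CpG dinucleotides were frequent in all 5 sequences. Their ratio of observed to expected CpG was 0.675 for Fgf4, 0.897 for Etv5, 0.864 for Dusp6, 0.947 for Spry2 and 1.00 for Spred1, against a median of 0.373 over 32851 promoters. The GC box stood in 32.7% of all promoters, 3 times in that of Etv5 and 2 times each in those of Fgf4 and Spred1. It was not found in those of Dusp6 and Spry2. The ETS motif CCGGAA (12.0% of all promoters), the cyclic AMP response element TGACGTCA (1.55%) and the TATA box TATAAA (12.4%), each searched on both strands, were in none of the 5. A second start site of Etv5, at chr16:22438369-22438618, held none of the 4 motifs.

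Most members were rapidly labelled genes. At 0 h in DPY30–mAID cells, 42.8% of Dusp6 reads, 38.2% of Spred1 reads, 33.7% of Spry4 reads, 33.6% of Spry2 reads and 31.1% of Fgf4 reads carried T>C, pooled over 3 libraries, where the median of 7036 genes averaging 30 or more reads was 18.7%. Dusp6 stood at percentile 98.0 of these genes, Spred1 at 94.9, Spry4 at 89.6, Spry2 at 89.3 and Fgf4 at 84.8. Genes differ in T content, so conversions per covered T position were ranked as well. By that measure these members stood at percentiles 97.0, 85.9, 88.8, 89.7 and 92.9 in turn, and Etv5, Fgfr1 and Etv4 at 81.0, 57.1 and 37.9. Etv5 lay at 27.0% and percentile 74.8, Fgfr1 at 18.6% and percentile 49.7, and Etv4 at 12.2% and percentile 27.8. RBBP5–FKBP cells gave a like order, with Dusp6 at percentile 98.5, Spry2 at 98.2 and Etv4 at 28.2. In dKO cells Dusp6 and Spry4 both lay at percentile 99.5 and Etv4 at 20.3. Spry4 stood at percentile 81.1 in RBBP5–FKBP cells, and Etv5 at 74.1 there and 50.9 in dKO cells.

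Dusp4 needs a caution here, because 10.1% (exact 95% binomial interval 7.64% to 13.1%, 51 of 503 reads) of its reads carried T>C in the unlabelled Quant-seq libraries. The other members ran from 0% (0 of 2396 Fgfr1 reads, upper limit 0.154%) to 0.991% (Spry4) there, and all genes together at 0.346%. The intervals cover counting error only. At 0 h 33.0%, 23.9% and 20.9% of Dusp4 reads carried T>C in DPY30–mAID, RBBP5–FKBP and dKO cells, so background may make up part of them. In T>C reads Dusp4 passed in no comparison, and its log2 change at 24 h was -0.67, -1.62 and -0.33 in these lines (adjusted p = 0.606, 0.0779 and 0.561).

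AU-rich pentamers (ATTTA), found in many short-lived mRNAs, were counted on the sense strand of the longest counted 3′ UTR interval of each gene. Spred1 held 12 of them in 4330 bases and Fgf4 6 in 2302 bases, which is 2.77 and 2.61 per kilobase, percentiles 77.7 and 75.0 of 6028 genes. Dusp6, the member with the highest T>C share, held 1 in 1190 bases and stood at percentile 33.7, and Etv4, the member with the lowest, held 0 in 624 bases. The densest 30 bases of Spred1 and Fgf4 are shown with the pentamers in capitals, from GENCODE vM21 transcripts on GRCm38 (Spred1 chr2:117179560-117179589, Fgf4 chr7:144863026-144863055, both in 3′ UTR exons on the plus strand).
Spred1: atactttttttaagaaagcATTTAtATTTA
Fgf4: aaaactggtctaagatATTTAaattATTTA

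**Figure D1:**
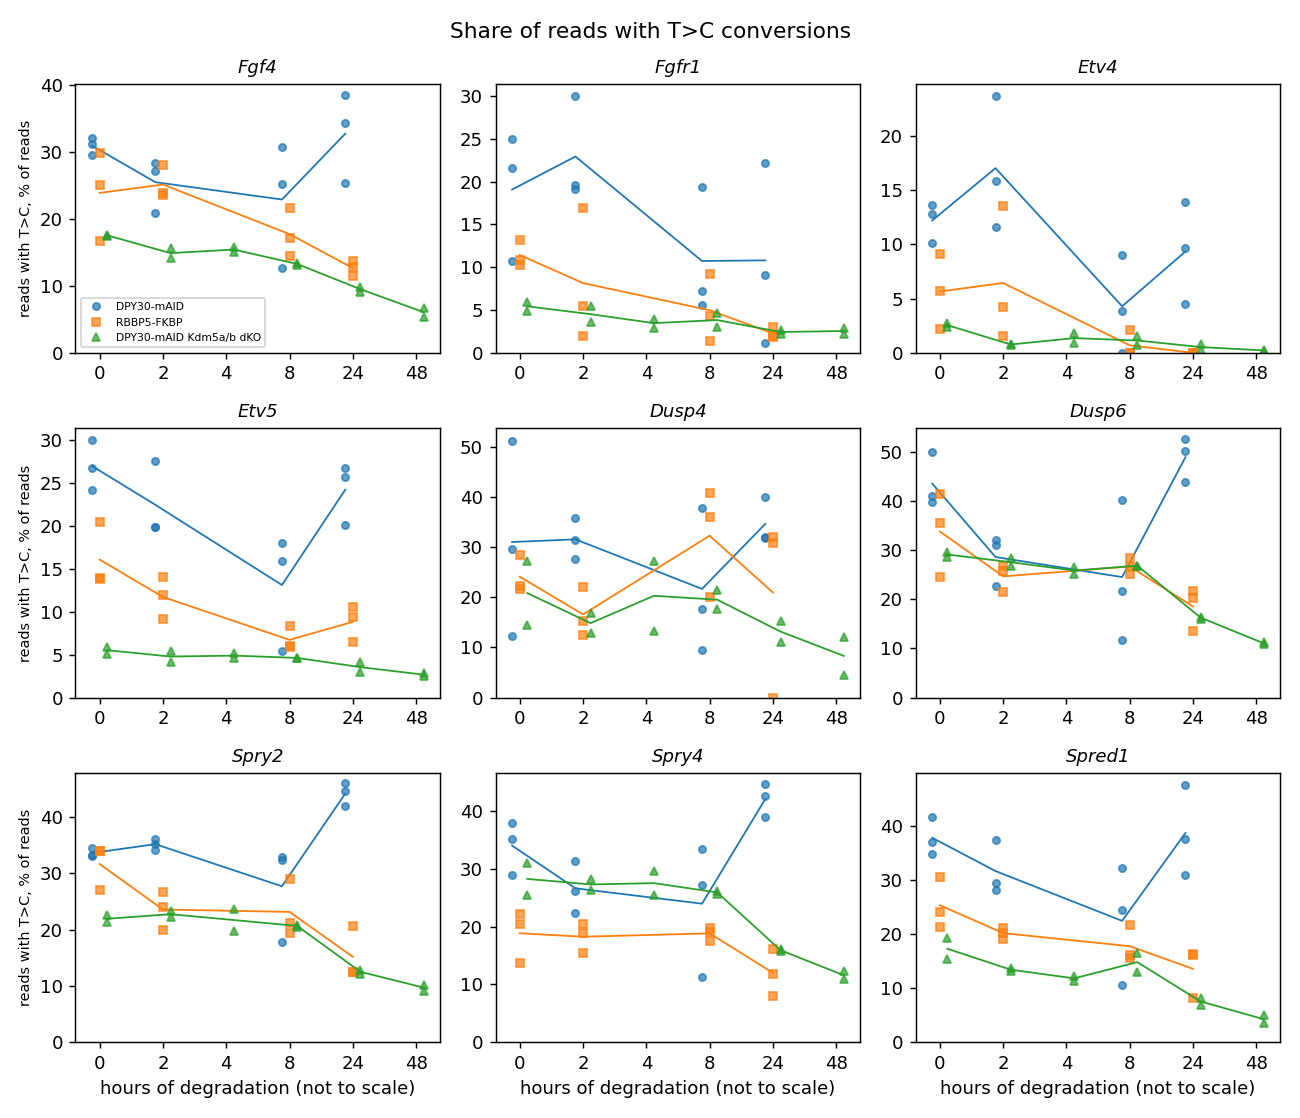
Reads with T>C as a percentage of all reads of each gene (vertical axis, starting at 0) against hours of degradation (horizontal axis, evenly spaced and not to scale), with 1 point per library and lines through the means. In DPY30–mAID cells the shares of Spry2, at 33.0% to 34.5% at 0 h, lay at 41.9% to 46.0% at 24 h, while in RBBP5–FKBP and dKO cells their mean was lowest at the last time.

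Changes in new RNA were tested on T>C CPM, which are T>C reads relative to all reads of the library, with a gene passing at an adjusted p below 0.05 over all genes tested. On this scale the whole T>C pool fell: in DPY30–mAID the log2 changes of all genes had a median of -0.72 at 8 h and of -0.14 at 24 h, with -0.49 and -0.91 in RBBP5–FKBP, and -0.80 at 24 h and -1.29 at 48 h in dKO cells. Member changes were therefore also computed after scaling to the T>C pool, which brings these medians to between -0.02 and 0.00, and the main ones are given. At 2 h no member passed in DPY30–mAID (0% of genes passed in either direction), RBBP5–FKBP (0.252%) or dKO cells (0%), where 2, 1 and 3 members had an unadjusted p below 0.05. At that unadjusted threshold 139 of 6317, 513 of 4761 and 341 of 5965 genes were lower. A further 61, 44 and 113 were higher. None passed at 4 h (0.453%) or 8 h (1.14%) in dKO cells either, with 1 and 2 members at an unadjusted p below 0.05. Of 5965 genes, 763 and 667 were lower and 32 and 70 higher at that unadjusted threshold. DESeq2 also called 0 members in each of these 5 comparisons.

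At 8 h in DPY30–mAID cells 4 of 9 members fell and 0 rose, where 16.1% of all genes fell and 0.158% rose. Spred1, an inhibitor of RAS signalling, stood at 91.1, 111 and 134 T>C CPM at 0 h and at 45.8, 33.1 and 15.2 at 8 h, and these groups did not overlap. Its log2 change was -1.84 ± 0.34 (SE, adjusted p = 0.000238, edgeR quasi-likelihood test), and -1.16 (adjusted p = 0.000147) relative to the T>C pool. Etv5 fell from 145 to 172 T>C CPM to 27.4 to 83.2, a log2 change of -1.29 ± 0.32 (adjusted p = 0.00422) and of -0.62 (adjusted p = 0.034) relative to the pool. Dusp6 (log2 -0.88, adjusted p = 0.0453) and Spry4 (-0.93, adjusted p = 0.0413) fell on the first scale, and stood at -0.21 and -0.24 (adjusted p = 0.609 and 0.628) relative to the pool. The third library at 8 h had the lowest T>C share of its line, 5.51% of all reads. Without it the calls of Dusp6 and Spry4 were lost, as they were without the second library at 8 h or without any 1 of the 0 h libraries. In a fit of the 2 groups the call of Etv5 was lost too (-1.31, adjusted p = 0.0605).

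At 8 h in RBBP5–FKBP cells Etv5 and Spred1 fell, 2 of 8 members tested, where 7.52% of all genes fell and 0.126% rose. Etv4 had too few T>C reads to be tested in this line. Etv5 stood at 89.3, 52.2 and 60.2 T>C CPM at 0 h and at 22.6, 23.1 and 23.0 at 8 h, with no overlap. Its log2 change was -1.55 ± 0.29 (adjusted p = 0.000197), and -1.06 (adjusted p = 0.049) relative to the T>C pool. Spred1 went from 47.0, 52.5 and 51.7 to 17.5, 13.5 and 17.2, a log2 change of -1.65 ± 0.32 (adjusted p = 0.000262) and -1.18 (adjusted p = 0.049) relative to the pool. Spred1 and Etv5 thus passed at 8 h in DPY30–mAID and RBBP5–FKBP cells under both scalings of T>C reads, in fits of all times. Of Etv5 reads 34.7% to 45.1% in DPY30–mAID and 30.1% to 41.7% in RBBP5–FKBP libraries mapped to more than 1 place. Its T>C calls were not tested without such reads.

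At 24 h the lines differed. In DPY30–mAID cells Dusp6, the ERK phosphatase, rose and Spred1 fell, 1 and 1 of 9 members, where 0.823% of all genes rose and 2.72% fell. Dusp6 stood at 132, 123 and 118 T>C CPM at 0 h and at 293, 288 and 225 at 24 h, above every 0 h library, a log2 change of 1.11 ± 0.31 (adjusted p = 0.031). Relative to the T>C pool 4 members rose: Dusp6 by 1.22 (adjusted p = 1.08e-07), Spry2 by 1.05 (0.000286), Spry4 by 0.86 (0.00113) and Fgf4 by 0.75 (0.0262). Spred1 (log2 -1.08, adjusted p = 0.000135) and Etv5 (-0.74, adjusted p = 0.00272) fell on that scale. On the first scale the call of Dusp6 was lost without any 1 of the 6 libraries, and that of Spred1 without any but the first at 24 h. In a fit of the 2 groups Spry2 (0.94, adjusted p = 0.000944), Spry4 (0.74, 0.00273) and Fgf4 (0.65, 0.0417) passed as higher on it too. Etv5 (-0.85, adjusted p = 0.000158) and Etv4 (-1.79, 0.0467) passed as lower in that fit.

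In RBBP5–FKBP cells at 24 h 5 of 8 members fell and 0 rose, where 25.9% of all genes fell and 0.189% rose. They were Spred1 (log2 -1.91), Etv5 (-1.45), Dusp6 (-1.33), Spry2 (-1.03) and Fgf4 (-0.89, adjusted p = 0.0488), whose call was lost without any 1 library but the third at 0 h, without TMM, with no filter and in a fit of the 2 groups (adjusted p = 0.0611, 0.107 and 0.0656). Dusp6 went from 38.5, 40.5 and 58.4 T>C CPM to 22.3, 13.6 and 18.7, and Spry2 from 56.9, 60.4 and 50.2 to 22.7, 21.5 and 37.8, without overlap. Relative to the T>C pool none of the 5 passed, with values from -1.0 (Spred1, adjusted p = 0.11) to 0.03 (Fgf4, adjusted p = 0.989).

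The difference between lines in the change from 0 h was tested in its own right. At 24 h 4 members differed between RBBP5–FKBP and DPY30–mAID cells, where 8.45% of all genes did and the median difference of all genes was -0.64. Dusp6 changed by 2.44 log2 units less in RBBP5–FKBP (difference -2.44 ± 0.42, adjusted p = 2.16e-05), Spry2 by -1.96 ± 0.43 (adjusted p = 0.00103), Fgf4 by -1.54 ± 0.49 (0.0311) and Spry4 by -1.46 ± 0.47 (0.0343). Relative to the T>C pool the differences of Dusp6 (-1.79, adjusted p = 0.000179) and Spry2 (-1.32, adjusted p = 0.0148) passed, and those of Fgf4 (-0.85, 0.289) and Spry4 (-0.81, 0.282) did not. The calls of Dusp6 and Spry2 held without any 1 library, while that of Spry4 was lost without 7 and that of Fgf4 without 6 of the 12 libraries, and both with no filter on low counts (adjusted p = 0.0642 and 0.0673). No member differed at 2 h (0% of genes, 1 member at an unadjusted p below 0.05) or 8 h (0.0937%, 0 members), by edgeR or DESeq2. Of 6404 genes, 187 and 75 had a negative and 80 and 417 a positive difference at that unadjusted threshold. The degron, the agent and the line changed together, so they cannot be told apart.

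**Figure D2:**
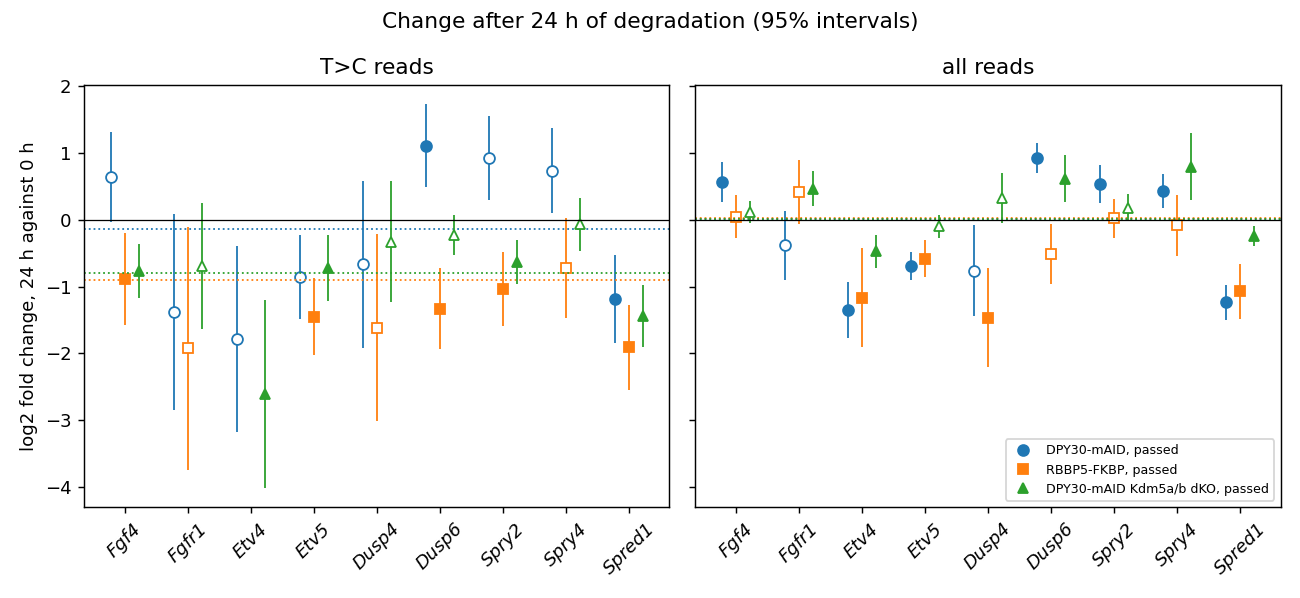
Log2 fold change of each member at 24 h against 0 h (vertical axis) for T>C reads (left) and all reads (right), with 95% intervals, filled points for genes that passed, open points for the others, and dotted lines at the median of all genes in each line. For T>C reads Dusp6, Spry2, Spry4 and Fgf4 lie above 0 in DPY30–mAID and below 0 in RBBP5–FKBP cells. Etv4 was not tested in T>C reads of RBBP5–FKBP cells.

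In dKO cells calls came at 24 h and 48 h, when the whole T>C pool had declined. At 24 h Fgf4, Etv4, Etv5, Spry2 and Spred1 fell, 5 of 9 members, where 42.2% of all genes fell and 0.151% rose. At 48 h 7 of 9 fell, all but Fgfr1 and Dusp4 and with overlapping libraries for Spry4, where 72.3% of all genes fell and 0.117% rose. With DESeq2 the call of Spry4 at 48 h was lost (-0.83, adjusted p = 0.0752), and Etv4 at 24 h had no adjusted p (-2.68). Spred1 stood at 17.5 and 21.4 T>C CPM at 0 h, 7.64 and 6.71 at 24 h and 3.75 and 5.06 at 48 h, a log2 change of -2.14 ± 0.25 at 48 h (adjusted p = 7.72e-12). It was the only member that also passed as lower relative to the T>C pool, by -0.64 at 24 h (adjusted p = 0.0389) and -0.84 at 48 h (adjusted p = 0.0104). On that scale Etv4 stood at -1.83 at 24 h and -2.61 at 48 h and did not pass (adjusted p = 0.121 and 0.0652). Relative to the pool Dusp6 was higher at 24 h (0.57, adjusted p = 5.24e-06) and 48 h (0.47, 0.000313), Spry4 at 24 h (0.74, 0.000319) and Spry2 at 48 h (0.38, 0.0404). Etv4 had 13 and 20 T>C reads at 0 h and 1 and 1 at 48 h. The changes at 24 h differed between dKO and DPY30–mAID cells for Spry2 (-1.58 ± 0.38, adjusted p = 0.015), Dusp6 (-1.35 ± 0.39, 0.0403) and Fgf4 (-1.42 ± 0.43, 0.0479), where 3.25% of all genes differed and the median difference was -0.71. Relative to the T>C pool that of Spry2 passed (-0.90, adjusted p = 0.0443), and those of Dusp6 (-0.66, 0.0761) and Fgf4 (-0.73, 0.283) did not. The calls of Dusp6 and Fgf4 were lost without any 1 library but the third at 24 h of DPY30–mAID, and that of Spry2 without the second dKO library at 0 h or either dKO library at 24 h. No member differed at 2 h (0%) or 8 h (0.29%), with 2 and 3 members at an unadjusted p below 0.05, where DESeq2 called 0 and 1. Of 6901 genes, 77 and 53 had a negative and 67 and 766 a positive difference at that unadjusted threshold. At 2 h Spry4 passed relative to the T>C pool (1.32, adjusted p = 0.0457).

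Total RNA was given by all reads, which come from old and new RNA. No member passed at 2 h in DPY30–mAID (0.0305% of genes in either direction), RBBP5–FKBP (0%) or dKO cells (0%), or at 4 h (0%) or 8 h (0.746%) in dKO cells, with 1 to 3 members at an unadjusted p below 0.05 in each and 0 called by DESeq2. At that unadjusted threshold 464 of 9848 genes were lower and 374 higher in DPY30–mAID at 2 h. In RBBP5–FKBP 413 of 9676 were lower and 395 higher. In dKO cells 521, 359 and 672 of 11394 were lower at 2, 4 and 8 h, and 609, 338 and 704 higher. With no filter on low counts Spry4 at 2 h (0.57, adjusted p = 2.77e-07) and Fgfr1 at 8 h (0.43, 0.0247) passed as higher in dKO cells.

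At 8 h in DPY30–mAID cells Spred1 and Spry4 fell, 2 of 9 members, where 7.85% of all genes fell and 5.32% rose. Spred1 went from 262, 302 and 323 CPM to 142, 136 and 143, a log2 change of -1.08 ± 0.13 (adjusted p = 9.64e-09). Spry4 changed by -0.41 (adjusted p = 0.0253), a call lost without the first or the third library at 0 h or the second at 8 h, or without TMM (-0.30, adjusted p = 0.114). At 24 h 4 members rose and 3 fell, where 15.9% of all genes rose and 17% fell. Dusp6 rose from 264, 309 and 288 CPM to 582, 545 and 511, a log2 change of 0.93 ± 0.11 (adjusted p = 3.1e-09). Fgf4, the ligand, rose from 117, 140 and 150 to 201, 203 and 202 (log2 0.57, adjusted p = 0.00239). The Sprouty genes Spry2 (0.54, adjusted p = 0.00221) and Spry4 (0.43, 0.00612) rose too. Etv4 fell from 91.6, 75.2 and 69.6 to 35.7, 25.9 and 30.2 (log2 -1.35 ± 0.21, adjusted p = 7.57e-07), Spred1 by 1.24 log2 units (adjusted p = 4.65e-11) and Etv5 by 0.69 (5.87e-07). In all 7 cases the 24 h libraries lay wholly on 1 side of the 0 h libraries. These members had passed this same comparison, and the share of all genes without overlap was not counted, so this adds no support.

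In RBBP5–FKBP cells no member rose in all reads. At 8 h Spred1 (log2 -1.12 ± 0.20, adjusted p = 0.000914) and Dusp4 (-1.25 ± 0.36, 0.0291) fell, where 4.96% of all genes fell and 4.2% rose. At 24 h 4 of 9 fell, where 4.34% of all genes fell and 3% rose: Spred1 (-1.07 ± 0.20, adjusted p = 0.00135), Etv5 (-0.58 ± 0.14, 0.00981), Dusp4 (-1.46 ± 0.36, 0.0121) and Etv4 (-1.17 ± 0.36, 0.0487), the last with overlapping libraries and lost without TMM (-1.13, adjusted p = 0.0553) and in a fit of the 2 groups (-1.18, 0.0793). Dusp4, a nuclear ERK phosphatase, stood at 41.3, 29.5 and 45.1 CPM at 0 h, 22.6, 14.1 and 12.2 at 8 h and 21.8, 13.6 and 6.22 at 24 h, from 13 to 122 reads in a library. Without the third library of 24 h Spred1 alone passed. Dusp4 at 8 h no longer passed without the third library at 0 h or the second or the third at 8 h, or in a fit of the 2 groups (-1.24, adjusted p = 0.0613). Dusp6, at 93.0, 165 and 164 CPM at 0 h and 110, 99.6 and 85.7 at 24 h, did not pass (log2 -0.52, 95% interval -0.97 to -0.07, adjusted p = 0.147).

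In dKO cells 3 members rose and 2 fell at 24 h (5.15% and 6.02% of all genes), and 2 rose and 1 fell at 48 h (6.59% and 7.93%). Dusp6 rose from 548 and 691 CPM to 941 and 958 at 24 h (log2 0.62 ± 0.17, adjusted p = 0.0282), and its 48 h libraries stood apart at 679 and 1172 (0.58, adjusted p = 0.0301), the first of them below the higher 0 h library. Spry4 (0.79, 0.0414) and Fgfr1 (0.46, 0.0252) rose at 24 h, and Dusp4 rose at 48 h (0.59, 0.0323). Etv4 fell at 24 h (-0.47, 0.017) and 48 h (-0.45, 0.0161), and Spred1 fell at 24 h by 0.24 log2 units (0.0397), against a fall by 1.24 in DPY30–mAID cells. The call of Spred1 was lost with DESeq2, without TMM, with no filter and in a fit of the 2 groups (adjusted p = 0.0866, 0.125, 0.114 and 0.0836). With DESeq2 the calls of Dusp6 (0.0869) and Spry4 (0.131) at 24 h and of Dusp6 (0.13) and Dusp4 (0.112) at 48 h were lost as well, and in a fit of the 2 groups so were all 3 calls at 48 h. A difference between lines was tested in T>C reads alone. With 2 libraries a group these counts are fragile: leaving out 1 library gave 0 to 3 risen and 0 to 1 fallen at 24 h, and 0 to 4 risen and 0 to 1 fallen at 48 h.

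**Figure D3:**
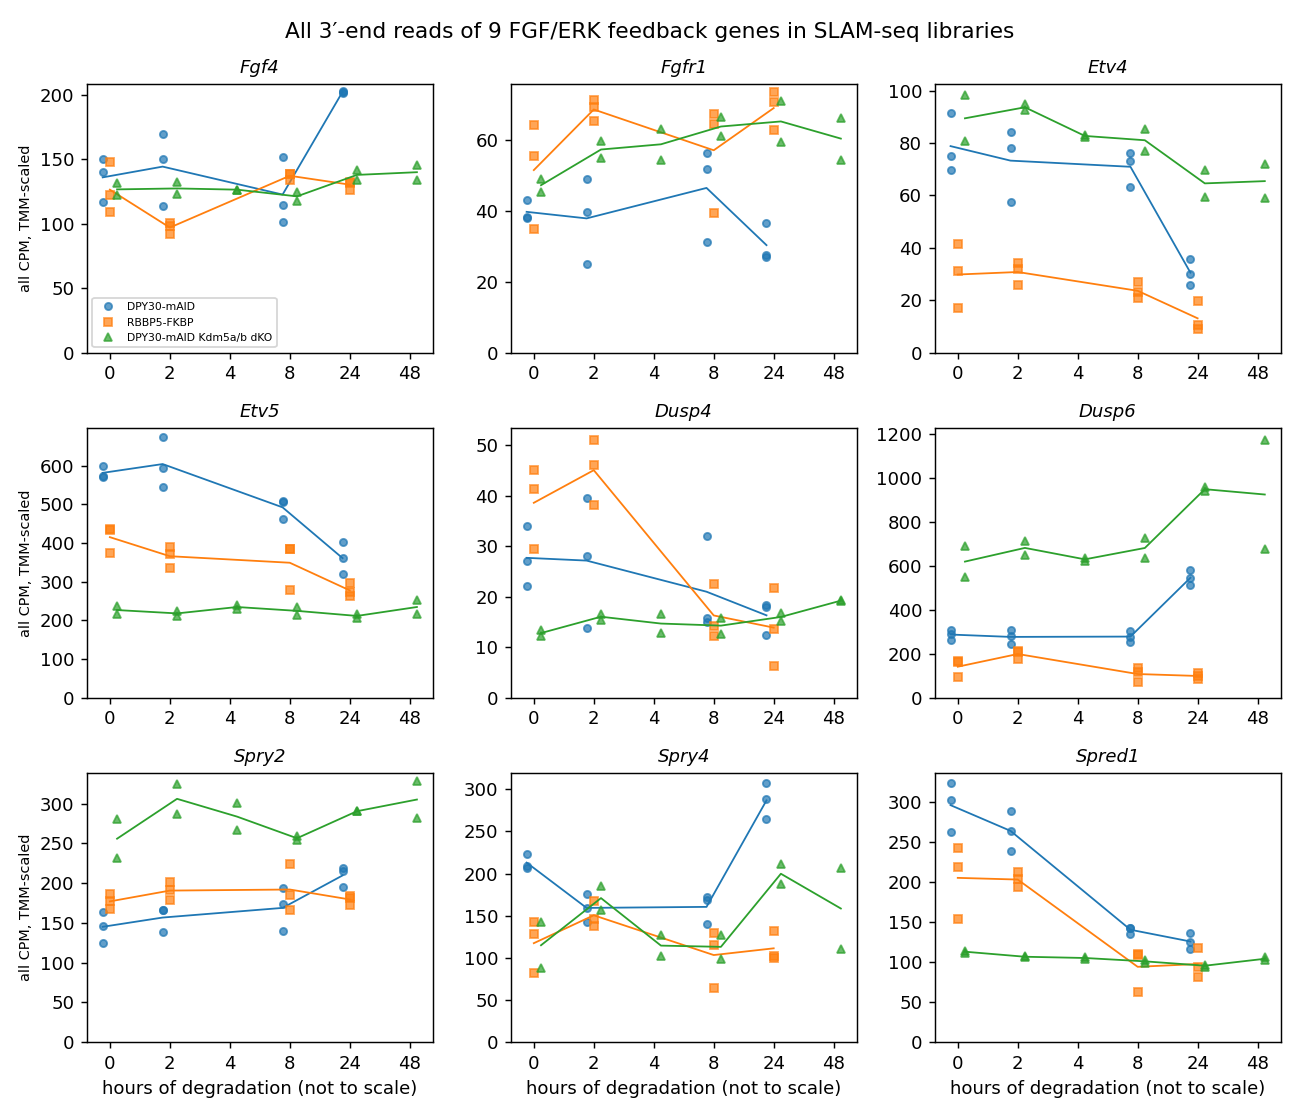
CPM of all reads of each member, TMM-scaled within a line (vertical axis, starting at 0), against hours of degradation (horizontal axis, evenly spaced and not to scale), with 1 point per library and lines through the means. Dusp6 in DPY30–mAID cells lies at 264 to 309 at 0 h and 511 to 582 at 24 h, and Spred1 at 262 to 323 and 116 to 137.

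Before any degradation the dKO line differed from its parent in 6 of 9 members, 4 lower and 2 higher, where 21.6% of all genes were lower and 24.7% higher. Dusp6 (log2 1.09 ± 0.13, adjusted p = 1.51e-08) and Spry2 (0.81 ± 0.12, 1.54e-06) were higher, and Spred1 (-1.40 ± 0.11, 1.39e-12), Etv5 (-1.37 ± 0.11, 5.05e-13), Dusp4 (-1.14 ± 0.32, 0.00426) and Spry4 (-0.90 ± 0.18, 7.62e-05) lower. The dKO libraries also had other depth and fewer T positions per read, so genotype and library making cannot be told apart. Between 69.2% and 76.5% of Etv5 reads in dKO libraries, and 34.7% to 45.1% in DPY30–mAID libraries, mapped to more than 1 place. Without such reads Etv5 stood at -2.46, so the size of its difference is uncertain. For Spred1 these shares were 7.97% to 12.9% and 0% to 0.912%, and for the other members under 1.4% in all SLAM-seq libraries. Of the other pathway genes 12 were higher and 9 lower in dKO cells at 0 h. The receptor gene Fgfr3 had 7 and 16 reads there (1.04 and 2.13 CPM) and 0 in each DPY30–mAID library at 0 h. Fgfr4 had 37 and 44 (5.48 and 5.85 CPM) against 0 to 5 (0 to 1.85 CPM). The dKO libraries at 0 h held 6799131 and 7792404 reads in all, the DPY30–mAID ones 2048085 to 2806821. With 0 reads in DPY30–mAID at 0 h, Fgfr3 could meet the filter on low counts only through other groups. The part of depth in its call as higher was not tested. Gab1 (log2 -2.80) and Dusp2 (-2.95, at 3 and 4 against 5 to 16 reads) were lower.

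The RA course asked how differentiation proceeds without DPY30. In DMSO cells, given RA while LIF was withdrawn, members changed in both directions. At 8 h 5 of 9 members fell and 2 rose (9.08% and 9.21% of all genes), at day 1 6 fell and 1 rose (25.5% and 26.2%), at day 2 6 fell and 3 rose (22.9% and 25.1%), at day 4 4 fell and 3 rose (25.6% and 28.7%), and at day 6 6 fell and 2 rose (26.1% and 29.1%). These 5 comparisons share the 0 h libraries, and day 6 rests on 1 DMSO library, which was taken to vary like the other groups. The 6 primitive endoderm markers, such as Gata6 and Sox17, rose in sum from 33.1 and 33.9 CPM at 0 h to 3452 at day 6, while the 8 pluripotency markers went from 7195 and 7484 to 1738. The 6 RA target genes rose in sum from 22.9 and 26.2 CPM at 0 h to 334 and 342 at 8 h with DMSO, and stood at 195 and 229 with auxin. Summed neural markers lay between 32.6 and 128 CPM in DMSO libraries, mesoderm markers between 5.82 and 33.1 and fibroblast markers between 5.11 and 48.9. The part of these markers' cells in the members' changes was not tested, and fewer cells of a type and less RNA per cell cannot be told apart in bulk samples.

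Fgf4 stood at 173 and 172 CPM at 0 h, 57.6 and 64.1 at 8 h, 74.4 and 65.5 at day 1, 19.2 and 24.5 at day 2, 40.6 and 30.9 at day 4 and 8.26 at day 6. It was below the 0 h libraries at every time, by 1.5 log2 units at 8 h (adjusted p = 2.79e-08) and by 4.37 at day 6 (6.99e-14). Its receptor Fgfr1 went the other way, from 32.0 and 37.3 to 59.2 and 67.3 at day 2, 84.7 and 95.3 at day 4 and 77.2 at day 6. Fgfr1 was higher from day 2 on (log2 0.86, 1.37 and 1.15, adjusted p = 0.000268, 1.79e-07 and 2.94e-05).

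Etv4 rose at first, from 179 and 156 to 207 and 247 CPM at 8 h (log2 0.44, adjusted p = 0.0323, lost without either 0 h library or the second 8 h library, and with DESeq2 at 0.132 or without TMM at 0.0651), and then fell to 66.4 and 58.6 at day 1 and to 15.3 at day 6 (log2 -3.45, adjusted p = 1.03e-11). Etv5 was lower at every time, from 590 and 598 at 0 h to 203 and 222 at day 1, 320 and 319 at day 4 and 122 at day 6. Of its Quant-seq reads 72.7% to 83.4% mapped to more than 1 place.

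Dusp6 rose in 4 of 5 comparisons. Its levels were 187 and 162 at 0 h, 396 and 380 at 8 h, 315 and 324 at day 1, 804 and 698 at day 2, 387 and 377 at day 4 and 212 at day 6, with the largest rise at day 2 (log2 2.11 ± 0.19, adjusted p = 7.54e-10) and no call at day 6 (0.28, adjusted p = 0.319), where it passed in a fit of the 2 groups (0.29, 0.0203). Dusp4 was at 2.91 and 7.63 at 0 h, from 6 and 18 reads, and rose to 21.3 and 22.1 at day 2 (log2 1.99 ± 0.34, adjusted p = 2.86e-05), staying at 20.0 to 21.9 at days 4 and 6.

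The 3 inhibitors were low at day 1. Spry4 went from 81.4 and 57.7 to 40.0 and 39.7 at 8 h and to 1.14 and 2.87 at day 1, from 2 and 5 reads, and stood at 22.9 and 21.6 at day 2. Its call at 8 h was lost without the first 0 h or either 8 h library, and with DESeq2 (-0.81, adjusted p = 0.128). Its log2 change at day 1 was -5.07 ± 0.40 (adjusted p = 7.86e-11), a size that few reads make imprecise. Spry2 went from 93.5 and 65.3 to 16.5 and 11.5 at day 1 and to 63.3 and 54.0 at day 4, where it did not pass (log2 -0.43, adjusted p = 0.0705). Spry2 was lower at day 4 with no filter (-0.43, adjusted p = 0.0486) and in a fit of the 2 groups (-0.40, 0.0118), and its call at day 2 was lost with DESeq2 (-0.60, 0.0813). Spred1 went from 96.0 and 108 to 33.5 and 33.3 at day 1, 85.1 and 84.8 at day 4 (log2 -0.27, adjusted p = 0.131) and 33.5 at day 6.

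**Figure D4:**
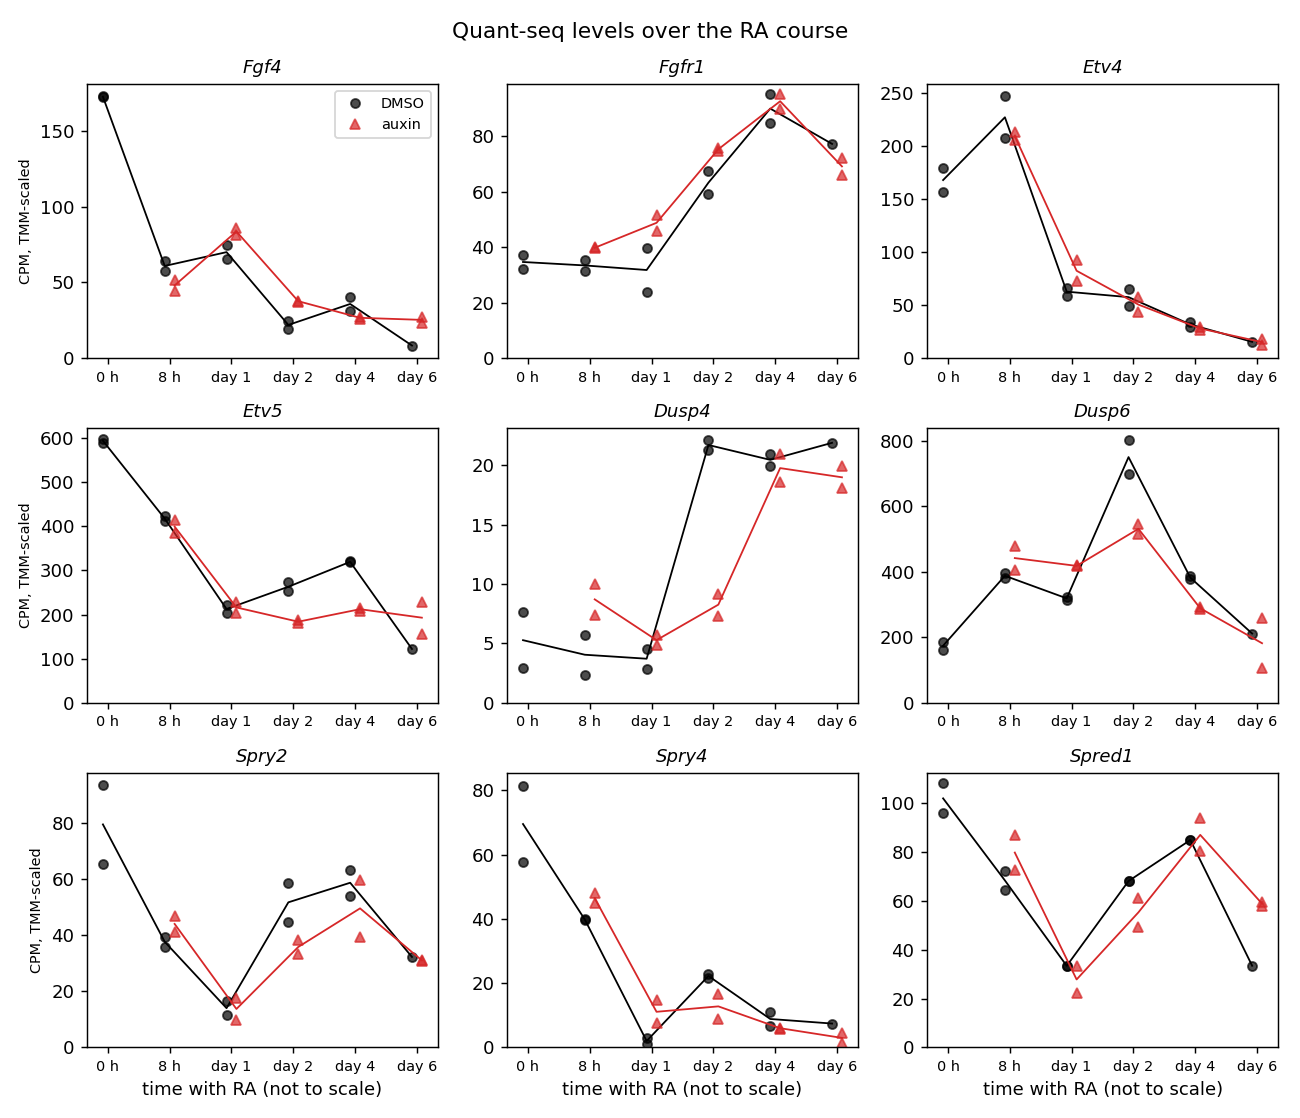
Quant-seq CPM of each member, TMM-scaled (vertical axis, starting at 0), against time with RA (horizontal axis, evenly spaced and not to scale) in DMSO (black circles) and auxin (red triangles), with 1 point per library, lines through the means and 1 DMSO library at day 6. Fgf4 falls from 172 and 173 to 8.26, Dusp6 peaks at 698 and 804 on day 2 in DMSO, and Spry4 is lowest, at 1.14 and 2.87, on day 1 in DMSO.

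The profiles were compared over the 11 Quant-seq groups by Pearson's r of mean log2 CPM. These points follow a time course that moved most genes, so r is a description. Among 11415 genes the gene most like Fgf4 was Ubxn10 (r = 0.93), that most like Fgfr1 was Phc2 (0.97), Etv4 Pdk1 (0.99), Etv5 Gpr4 (0.96), Dusp4 Fgf10 (0.96), Dusp6 Gadd45a (0.92), Spry2 F2rl1 (0.92), Spry4 Pabpc4 (0.93) and Spred1 Mbtd1 (0.94). Among the members Spry2 and Spred1 were most alike (r = 0.91), followed by Dusp4 and Fgfr1 (0.87), and Fgf4 and Dusp4 were least alike (-0.82). Dusp6 reached at most 0.32 with any other member.

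With auxin added to RA 1 to 3 of 9 members passed at each time from day 1 on. At 8 h no member differed from DMSO, where 0.762% of all genes differed in either direction. By edgeR 2 members had an unadjusted p below 0.05, where 710 of 11415 genes were lower and 510 higher at that threshold. DESeq2 called 0 members. At day 1 Spry4 was higher with auxin (log2 2.42 ± 0.58, adjusted p = 0.00973), 1 of 9 members, where 4.27% of all genes were higher and 2.97% lower. It stood at 7.56 and 14.6 CPM with auxin, from 12 and 21 reads, against 1.14 and 2.87, from 2 and 5 reads. The groups did not overlap, but Spry4 no longer passed without the second auxin or the first DMSO library of that day.

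At day 2 Fgf4 was higher with auxin, and Dusp4 and Etv5 were lower, where 5.96% of all genes were higher and 7.39% lower. Dusp4 stood at 7.33 and 9.19 CPM with auxin against 21.3 and 22.1 with DMSO (log2 -1.39 ± 0.33, adjusted p = 0.00521), and had reached 18.6 and 20.9 with auxin by day 4, where DMSO stood at 20.0 and 21.0. Fgf4 stood at 37.2 and 37.9 against 19.2 and 24.5 (log2 0.77 ± 0.20, adjusted p = 0.00975), and Etv5 at 180 and 187 against 252 and 274 (-0.52 ± 0.12, 0.00543). Dusp6 stood at 516 and 547 against 804 and 698 without overlap and missed the threshold (-0.50, 95% interval -0.86 to -0.14, adjusted p = 0.0613). Dusp6 passed with no filter on low counts (-0.50, adjusted p = 0.000188), in a fit of the 2 groups (-0.51, 9.55e-05) and without reads mapped to more than 1 place (-0.52, 0.0452). At day 1 Dusp6 stood higher with auxin, at 416 and 420 CPM against 315 and 324, and at day 4 lower, at 286 and 291 against 387 and 377, each without overlap. Neither passed, and both did with no filter (0.39, adjusted p = 0.0193 and -0.41, 0.00516) and in fits of 2 groups (0.36, 0.00597 and -0.38, 0.000938). Without the first auxin library of day 2 none of the 3 members passed, Fgf4 was lost without the second auxin or the first DMSO library, and Etv5 without the second DMSO library.

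At day 4 Etv5 alone passed, at 209 and 215 CPM with auxin against 320 and 319 (log2 -0.59 ± 0.12, adjusted p = 0.000859), where 10.4% of all genes were lower and 7.78% higher. At day 6 Fgf4 (log2 1.59 ± 0.31, adjusted p = 0.00066), Spred1 (0.81 ± 0.22, 0.0109) and Etv5 (0.65 ± 0.16, 0.00531) were higher with auxin and 0 were lower, where 7.96% of all genes were higher and 10.4% lower. Fgf4 stood at 23.3 and 27.1 against 8.26, Spred1 at 58.0 and 59.8 against 33.5 and Etv5 at 156 and 229 against 122 in the single DMSO library. In a fit of these 2 groups alone none of the 3 passed, Spred1 was lost with DESeq2 (0.79, adjusted p = 0.054), and Etv5 was lost without the second auxin library. Without the first auxin library 2 members were lower. The primitive endoderm markers stood in sum at 601 and 638 with auxin against 3452 at day 6, at 548 and 572 against 1588 and 1608 at day 4, and at 223 and 246 against 395 and 401 at day 2. The pluripotency markers were lower with auxin at 8 h (5676 and 5791 against 6951 and 7304), day 1 (5336 and 5376 against 7734 and 7817), day 2 (2979 and 3050 against 4352 and 4432) and day 4 (1956 and 2004 against 3372 and 3409), and at day 6 stood at 1667 and 1778 against 1738. RA target genes stood at 890 and 941 against 1528 and 1634 at day 1 and at 984 and 1035 against 753 and 754 at day 4. The part of these markers in the members' differences was not tested.

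The auxin effect was also compared with that at 8 h. It differed at day 2 for Fgf4 (1.12 ± 0.26, adjusted p = 0.0118) and Dusp4 (-2.43 ± 0.55, 0.00975), where 4.01% of all genes differed, and at day 6 for Fgf4 (1.94 ± 0.36, 0.000762) and Etv5 (0.72 ± 0.20, 0.0233), where 8.29% did. No member differed at day 1 (2.53%) or day 4 (6.23%), with 3 members at an unadjusted p below 0.05 at each and 0 called by DESeq2. Of 11415 genes, 644 and 1210 had a negative and 1023 and 952 a positive difference at that unadjusted threshold. At day 2 the call of Dusp4 was lost without 3 and that of Fgf4 without 4 of the 8 libraries, and DESeq2 gave Dusp4 a like change (-2.45) with no adjusted p. The call of Etv5 at day 6 was lost without reads mapped to more than 1 place (0.85, adjusted p = 0.0533), and without the second auxin library of 8 h or of day 6 or the second DMSO library of 8 h.

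A list of 54 other pathway genes in the files (ligands, receptors, adaptors, RAS genes, kinases, inhibitors and ERK targets) was followed in the same fits. In all reads of DPY30–mAID cells 5 of 41 tested rose and 8 fell at 24 h, near the 15.9% and 17% of all genes. Egr1, an immediate early target of ERK, rose from 4.45 to 7.01 CPM to between 37.3 and 56.1 (log2 3.06, adjusted p = 7.93e-08), and Lztr1 rose by 1.67. The ligand gene Fgf15 had 8 to 20 reads at 0 h and 0 in each library at 24 h, and the phosphatase gene Dusp2 fell (log2 -3.04, from 5 to 16 reads to 0 to 2). At 8 h, where 5.32% of all genes rose and 7.85% fell, 3 rose, with Il17rd (1.30) and Ier3 (0.96) changed most, and 4 fell, with Phlda1 (-1.86) and Ier2 (-0.68) changed most. Phlda1 alone passed at 2 h (-0.87, adjusted p = 0.0405).

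In RBBP5–FKBP cells no pathway gene rose in all reads. Of all genes 4.2% rose and 4.96% fell at 8 h, and 3% rose and 4.34% fell at 24 h. At 24 h 3 of 41 fell, Phlda1 by 3.15 and Egr1 by 1.99 log2 units most, and at 8 h 6 fell, Fgf15 (log2 -3.30, from 8 to 44 reads to 0 to 3) and Phlda1 (-2.17) most. In T>C reads the log2 change of Egr1 at 24 h differed by -4.77 between RBBP5–FKBP and DPY30–mAID cells (adjusted p = 0.00217), and that of Phlda1 by -4.53 (4.43e-06), 3 of 30 pathway genes in all, where 8.45% of all genes differed. In dKO cells Egr1 rose at 24 h (2.25) and 48 h (2.47), as did Fosl1 (1.48 and 1.45), while Spry1 fell (-0.87 and -1.21), with the adaptor gene Shc1 at 24 h (-0.55) and the receptor gene Fgfr4 at 48 h (-1.04). At 8 h Phlda1 fell in T>C reads (-0.59), and at 24 h the T>C change of Dusp1 was lower in dKO than in DPY30–mAID cells (difference -1.84, adjusted p = 0.0388), though not relative to the T>C pool (-1.17, 0.196). Of 45 tested there 7 rose and 3 fell at 24 h (5.15% and 6.02% of all genes), and 8 rose and 6 fell at 48 h (6.59% and 7.93%).

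In T>C reads 7 of 30 pathway genes fell and 1 rose at 8 h in DPY30–mAID cells (16.1% and 0.158% of all genes), Phlda1 (-2.24) falling and Ier3 (1.82) rising, with Egr1 at 0 to 9 reads before and 0 after. At 24 h Egr1 rose (3.02) and Ptpn11 fell (-2.80). In RBBP5–FKBP cells 3 of 25 fell at 8 h (7.52% of all genes), Phlda1 (-3.59) and Gab1 (-2.72) most, and 9 at 24 h (25.9%), Phlda1 (-4.35) and Dusp7 (-2.49) most. In dKO cells 16 of 28 fell and 1 rose at 24 h, and 20 fell and 1 rose at 48 h, where 42.2% and 72.3% of all genes fell. Spry1 fell most (-2.32 and -3.30), followed by Araf (-1.66) at 24 h and Rps6ka3 (-2.27) at 48 h, and Egr1 rose (1.44 and 1.5). Relative to the T>C pool Dusp7, Araf and Rps6ka3 did not pass.

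With RA the receptor gene Fgfr2 had 0 reads in both 0 h libraries and rose to 31.3 and 32.2 CPM at day 2 and 109 at day 6, and Fgf10 rose from 0 and 2 reads to 31 at day 6. Of 46 pathway genes 4 rose and 5 fell at 8 h, 5 and 17 at day 1, 9 and 13 at day 2, 14 and 10 at day 4, and 11 and 8 at day 6. Of all genes 9.21% rose and 9.08% fell at 8 h, and between 22.9% and 29.1% in each direction at the later times. Dusp9 rose at 8 h (1.40) and Sos2 at day 1 (2.74), while Junb (-1.61) and Fgf15 (-1.42) fell at 8 h, Myc (-3.72) and Rps6ka1 (-1.88) at day 1 and Ier3 at day 2 (-1.26) and day 4 (-1.84). Fgf15 fell at day 2 too (-1.31), from 31 and 32 reads to 9 and 14, and had 0 and 4 reads at day 4 and 0 at day 6, when Etv1 fell (-2.11). With auxin 0 of 46 differed at 8 h, where 0.762% of all genes did. At day 1 2 were lower and 0 higher, at day 2 5 lower and 2 higher, at day 4 4 lower and 3 higher, and at day 6 7 lower and 5 higher, where at these 4 times 2.97% to 10.4% of all genes were lower and 4.27% to 7.96% higher. The ligand gene Fgf1 was higher with auxin at day 2 (1.98), day 4 (3.62) and day 6 (2.38). Fgfr2 was lower at day 4 (-0.74) and day 6 (-1.23), and Junb was lower at day 1 (-2.27) and day 2 (-1.06). Sos2 was lower at day 1 (-1.21), Phlda1 at day 2 (-1.05), the ERK gene Mapk3 at day 4 (-0.64) and Nras at day 6 (-1.21). Dusp9 was higher at day 2 (0.32), Fos at day 4 (2.13, from 9 and 18 reads against 1 and 6) and Dusp5 at day 6 (1.56). Against the effect at 8 h, that of auxin was lower for Junb at day 1 (-2.91) and day 2 (-1.70), Phlda1 at day 2 (-0.79), Mapk3 at day 4 (-0.61), and Map2k1 (-1.03) and Rps6ka1 (-0.92) at day 6, and higher for Dusp9 at day 2 (0.62) and Ksr1 (1.56) and Dusp1 (1.42) at day 6.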

How the data were processed

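SLAM-seq and Quant-seq libraries were analysed from the counts deposited by the authors: reads, reads with T>C and multimapping reads per 3′ UTR interval (GENCODE vM14) on mm10, unnormalised. Per the file headers SlamDunk 0.3.4 made them; for Quant-seq the submitters' processing notes also name HISAT2 2.2.1 and featureCounts. Adapters had been trimmed with Trim Galore. Reads were summed per gene, and levels are CPM with TMM scaling. Genes averaging 10 or more reads in a group were tested with edgeR 4.0.16 (quasi-likelihood test, R 4.3.3), 1 fit per line or assay, Benjamini-Hochberg adjusted over all genes tested, passing at 0.05. T>C reads used library sizes and TMM factors of all reads. Alternatives were DESeq2 1.42.0, no TMM, TMM from T>C reads, no filter, a replicate block, fits of 2 groups, a log2 limit of 1 and each library left out; leaving out reads mapped to more than 1 place was added after seeing the data.

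Groups came from the sample labels. Every member is named, with the gene most like it, and of the other pathway genes the 2 changed most in each direction. Members and lists were chosen with earlier results of these data known. Replicate numbers were not taken as pairs. The fits were tested on simulated data with 200 genes changed by 2 log2 units: 59% were recovered for T>C reads of DPY30–mAID at 24 h, 82.5% for all reads there, and 28% for the T>C difference between RBBP5–FKBP and DPY30–mAID. Most changes reported here were smaller than the simulated ones, and recovery of smaller changes was not tested. Depth limits low genes. Binomial intervals of T>C shares cover counting error only, and intervals of log2 changes come from the edgeR fit and include the spread between libraries. Some listed pathway genes are not reported here.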

Additional observations from a re-analysis of the deposited data

Results flagged for a closer look

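The change in T>C reads from 0 to 24 h differed between RBBP5–FKBP and DPY30–mAID cells, by the test of the difference itself, for Dusp6 (-2.44), Spry2 (-1.96), Fgf4 (-1.54) and Spry4 (-1.46). Between dKO and DPY30–mAID cells it differed for Spry2 (-1.58), Fgf4 (-1.42) and Dusp6 (-1.35). These are log2 differences, RBBP5–FKBP or dKO minus DPY30–mAID. With RA, the auxin effect differed from that at 8 h for Dusp4 at day 2 (-2.43) and Fgf4 at day 2 (1.12), and for Fgf4 (1.94) and Etv5 (0.72) at day 6. The adjusted p-values stand with these results above.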

How the results depend on the processing

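Of 111 member calls DESeq2 kept 99, library sizes without TMM 102, no filter on low counts 105 and a log2 change beyond 1 69; fits of 2 groups kept 87 of 100, leaving out reads mapped to more than 1 place 78 of 79, and TMM from T>C reads 11 of 32. DESeq2 gave no adjusted p in 35 member tests. Leaving out reads mapped to more than 1 place was tried for all reads only, not for T>C reads. Counts below are of members, first as reported and then under the alternative, and the cause of a change was not tested. Scaling to the T>C pool turned the direction at 24 h in dKO cells of Etv5 (0.065), Dusp6 (0.57), Spry2 (0.16), Spry4 (0.74) and Fgf4 (0.029), at 48 h of Etv5 (0.32), Dusp6 (0.47), Spry2 (0.38) and Spry4 (0.47), and in RBBP5–FKBP cells at 24 h of Fgf4 (0.027), in log2 units. The count of T>C members that fell went there from 5 to 1 at 24 h and 7 to 1 at 48 h in dKO cells, and 0 to 2 rose at each; from 4 to 2 at 8 h and 1 to 2 at 24 h in DPY30–mAID, where 1 to 4 rose; and from 5 to 0 in RBBP5–FKBP at 24 h. Line differences went from 4 to 2 for RBBP5–FKBP and 3 to 1 for dKO at 24 h, and 0 to 1 for dKO at 2 h.

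With DESeq2, all reads in dKO cells at 24 h went from 2 to 1 lower and 3 to 1 higher, at 48 h from 2 to 0 higher, RA at 8 h from 2 to 1 higher, the auxin effect difference of day 2 from 1 to 0 lower, T>C reads of DPY30–mAID at 24 h from 1 to 2 higher and the dKO line difference at 8 h from 0 to 1. Without TMM, all reads in dKO cells went from 2 to 1 lower at 24 h and 2 to 4 higher at 48 h, in DPY30–mAID at 8 h from 2 to 1 lower, RA at 8 h from 2 to 1 higher, T>C reads of DPY30–mAID at 8 h from 4 to 2 lower and the dKO line difference at 24 h from 3 to 1. With no filter, all reads in dKO cells went from 0 to 1 higher at 2 h and 8 h, 2 to 1 lower at 24 h and 2 to 5 higher at 48 h, auxin from 1 to 2 higher at day 1 and 1 to 2 lower at day 4, its effect difference from 0 to 1 higher at day 1, 1 to 2 lower at day 2 and 0 to 2 lower at day 4, and the RBBP5–FKBP line difference at 24 h from 4 to 2. In fits of 2 groups, all reads in dKO cells went from 2 to 1 lower at 24 h, and 1 to 0 lower and 2 to 0 higher at 48 h, in RBBP5–FKBP at 8 h from 2 to 1 lower, auxin from 1 to 2 higher at day 1, 2 to 4 lower at day 2, 1 to 2 lower at day 4 and 3 to 0 higher at day 6, and T>C reads of DPY30–mAID from 4 to 1 lower at 8 h, and 1 to 3 lower and 1 to 4 higher at 24 h.

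Beyond a log2 change of 1, all reads in dKO cells had 0 calls at 24 h and 48 h, DPY30–mAID 1 lower at 8 h and 0 higher at 24 h, dKO against DPY30–mAID at 0 h 1 higher, RA 2 lower and 1 higher at 8 h and 0 higher at day 1, auxin 1 lower and 0 higher at day 2, 0 lower at day 4 and 1 higher at day 6, its effect difference 1 higher at day 6, and T>C reads 2 and 3 lower at 24 h and 48 h in dKO cells and 2 lower at 8 h in DPY30–mAID. Without reads mapped to more than 1 place the effect difference of day 6 went from 2 to 1 higher. In all reads of DPY30–mAID at 8 h Etv5 then passed as lower too (-0.33, adjusted p = 0.0496).

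Leaving out 1 library at a time gave, for all reads in dKO cells, 0 to 1 lower and 0 to 3 higher at 24 h and 0 to 1 lower and 0 to 4 higher at 48 h; 1 to 2 lower at 8 h in DPY30–mAID and in RBBP5–FKBP, and 1 to 4 lower at 24 h in the latter; 3 to 4 lower and 1 to 2 higher for RA at 8 h; 0 to 2 higher at day 1, 0 to 2 lower and 0 to 1 higher at day 2 and 0 to 2 lower at day 6 for auxin; and 0 to 1 lower and 0 to 1 higher at day 2 and 0 to 2 lower and 1 to 2 higher at day 6 for its effect difference. For T>C reads it gave 0 to 1 higher at 2 h and 3 to 6 lower at 24 h in dKO cells, 2 to 6 lower at 8 h and 0 to 1 lower and 0 higher at 24 h in DPY30–mAID, and line differences of 2 to 4 at 24 h for RBBP5–FKBP, and 0 to 3 at 8 h and 24 h for dKO.

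A replicate block kept 107 of 111 calls and turned 0. It lost Dusp4 at 0 h between dKO and DPY30–mAID (-0.94, adjusted p = 0.0502), Fgf4 in T>C reads of RBBP5–FKBP at 24 h (-0.84, 0.071) and Fgf4 in both line differences (-1.45, 0.0553 and -1.38, 0.0521), and added Fgfr1 for all reads in dKO cells at 48 h (0.35, 0.0311). The replicate numbers were not taken as pairs, since not every pair of same-numbered libraries correlated above 0.1 in any fit: the median correlations of their deviations ran from -0.011 to 0.045. Single pairs went higher, with 10 of 30 above 0.1 (up to 0.403) for all reads of dKO cells and 6 of 90 (up to 0.352) in Quant-seq. Whether these follow the 2 dKO clones was not tested. Depth limits the genes with few T>C reads, Etv4, Dusp4 and Fgfr1 among them.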
